A study of Danio rerio with 4 samples.

Results

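Conjugation enzymes join a small polar group to a drug, pollutant, hormone or bile pigment so that it can be excreted. UDP-glucuronosyltransferases (UGT) transfer glucuronic acid or another sugar from a UDP sugar in the endoplasmic reticulum, sulfotransferases (SULT) transfer sulfate from the donor PAPS in the cytosol, and glutathione S-transferases (GST) join glutathione to electrophiles. Liver, intestine and kidney are the organs best known for these reactions, and bisphenols are among the phenols that UGT and SULT enzymes conjugate. The genes described here were all rows of the deposited zebrafish (Danio rerio) expression table whose symbol began with ugt, sult or gst followed by a family number or class letter. The rule used names and no measured value. It gave 67 genes of 27472 listed, namely 30 UGT, 19 SULT and 18 GST genes.

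The BPC group was zebrafish of strain AB placed in 4 µM bisphenol C (BPC, a bisphenol) at 4 hours post fertilization (hpf) and sampled at 72 hpf. The DMSO group was strain AB of the same age kept in dimethyl sulfoxide, the solvent, from the same hour. Each group had 2 libraries of polyadenylated RNA, numbered 1 and 3. The labels name no dissected tissue and do not say how many larvae made a library or whether the libraries came from separate clutches, so p-values reflect how far these libraries vary, in part perhaps for technical reasons.

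Levels are in FPKM, a count of sequenced fragments divided by transcript length and by the library's mapped fragments, which allows levels of different genes to be set side by side per length. The read depth is unknown. FPKM totals were 422245 and 425611 in BPC libraries and 355583 and 355364 in DMSO libraries. A gene was called higher or lower when limma's test on log2(FPKM + 1) gave a Benjamini-Hochberg adjusted p under 0.05 over 19873 genes, and each log2 difference below is BPC minus DMSO on that scale, with its standard error (SE). The test and the SE use a variance that limma draws from the gene's own libraries toward a trend over all tested genes. They are thus not the spread of the gene's own libraries alone. The FPKM of a whole larva does not tell fewer cells of a type from less RNA per cell.

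Across the 46 conjugation genes that could be tested, 18 were lower and 6 were higher in BPC larvae. Among all tested genes 24.6% passed, 17.5% as lower and 7.06% as higher, against 39.1% lower and 13.04% higher among the conjugation genes. The median log2 difference was −0.24 over the conjugation genes and −0.12 over all tested genes. When the libraries were scaled to equal totals, as TPM are, the calls were 24 lower and 3 higher among the conjugation genes and 7286 lower and 759 higher over all genes, against 3480 lower and 1404 higher as deposited. That scaling moved the median of all genes by −0.25, median centring by 0.15 and quantile normalization by 0.14. Under median centring 13 conjugation genes were lower and 7 higher. The count of lower genes was 5 without the DMSO 1 library and 7 without DMSO 3, and that of higher genes was 2 and 1.

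Of the 67 genes, 37 had both BPC values below both DMSO values and 10 had both above. Over all listed genes 39.5% lay wholly below and 19% wholly above. Among the conjugation genes these shares were 55.2% below and 14.9% above, and 20 genes overlapped. The filter of 0.5 FPKM in 2 libraries left 21 conjugation genes untested, with no value above 2.97 FPKM. Both BPC values lay below both DMSO values in 9 of these, above in 0, and the groups overlapped in 12. The share among all untested genes was not computed, so these counts are not set against it. Genes listed at 0 over the whole table numbered 3212 and 3141 in BPC libraries, against 2451 and 2391 in DMSO libraries. A further 6 genes entered the test only through their DMSO libraries and were all called lower, as their selection by the DMSO level made likely: ugt1b2, ugt2b5, ugt5d1, 1 of the 3 ugt2a7 IDs, sult1st6 and sult3st3. Among the 41 genes with a mean of at least 1 FPKM, 15 were lower and 6 higher, against 3022 and 1348 of 17384 such genes in the whole table. The 15 still include ugt2b5, ugt5d1 and sult1st6, of the 6 above.

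**Figure D1:**
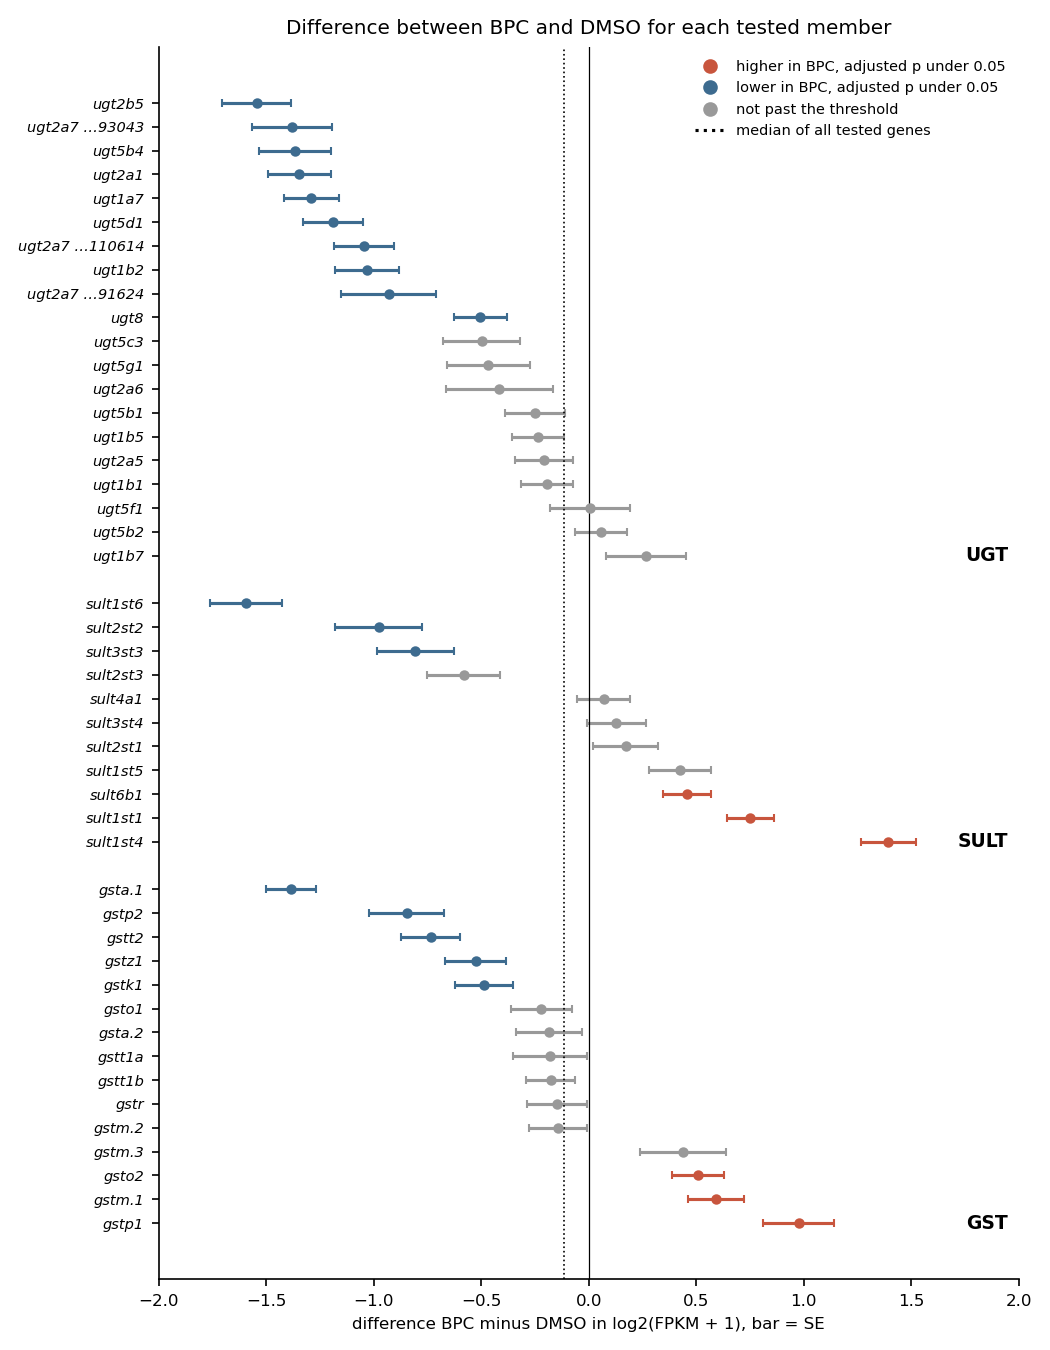
The log2 difference BPC minus DMSO is plotted for the 46 tested conjugation genes, grouped as UGT, SULT and GST, with bars for the SE and a dotted line at the median of all tested genes (−0.12). All 10 called UGT genes lie left of zero, while called SULT and GST genes lie on both sides.

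UGT transcripts were lower in BPC larvae wherever they passed the test: 10 of 20 tested genes fell and 0 rose. The share called lower was 50%, where 17.5% of all tested genes were lower and 7.06% higher. Of the 10 UGT genes that fell, 4 entered the test only through DMSO, where 526 of the 3480 lower genes did over the whole table. This filter effect thus weighed more on the UGT share than on the share of all genes. At an unadjusted limma p under 0.05 the counts were 12 lower and 0 higher, and the authors' deposited table flagged 0 as up. The genes were all of low level, under 10 FPKM in every library. The summed UGT level was 34.0 and 34.3 FPKM in BPC libraries, against 66.0 and 60.0 FPKM in DMSO libraries. The groups did not overlap, and the BPC mean was 0.541 of the DMSO mean. Such sums were not tested, since an exact permutation test of 2 against 2 libraries cannot go below p = 0.333.

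The UGT1 genes include the phenol and bilirubin conjugating enzymes of vertebrates. Expression of ugt1a7 was 1.66 and 1.47 FPKM in BPC libraries, against 5.16 and 5.39 FPKM in DMSO libraries. Both BPC libraries were far below both DMSO libraries, by 3.37-fold at the means (log2 difference −1.29, SE 0.13, adjusted p = 0.00264). The leading UGT gene, ugt1b1, had 7.00 and 7.70 FPKM in BPC libraries and 9.10 and 8.02 FPKM in DMSO libraries. For ugt1b5, the next in level, the values were 4.99 and 5.08 FPKM in BPC libraries and 5.78 and 6.45 FPKM in DMSO libraries. Neither of these passed the test (log2 difference −0.19, SE 0.12, adjusted p = 0.281 for ugt1b1; log2 difference −0.24, SE 0.12, adjusted p = 0.194 for ugt1b5), though both passed when libraries were scaled to equal totals (adjusted p = 0.0356 and 0.0276). With the low-level ugt1b2 also called, 2 of 5 tested UGT1 genes (40%) were lower, against 17.5% of all tested genes. The UGT1 sum was 16.0 and 15.9 FPKM in BPC libraries and 22.6 and 22.7 FPKM in DMSO libraries.

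UGT2 enzymes glucuronidate steroids, bile acids and other lipophilic compounds in mammals. Here this class had 5 of 7 tested genes lower (71.4%), against 17.5% of all tested genes. Of the 5, 2 entered the test only through DMSO, and 3 were IDs of the 1 symbol ugt2a7. Levels of ugt2b5 were 0.480 and 0.403 FPKM in BPC libraries, against 2.73 and 3.72 FPKM in DMSO libraries. The groups were far apart (log2 difference −1.54, SE 0.16, adjusted p = 0.00299), though the gene entered the test only through DMSO. The gene ugt2a1 had 0.499 and 0.682 FPKM in BPC libraries, against 3.30 and 2.78 FPKM in DMSO libraries (log2 difference −1.35, SE 0.15, adjusted p = 0.00334). Of the 3 gene IDs that carry the symbol ugt2a7, ENSDARG00000093043 had 0.506 and 1.099 FPKM in BPC libraries and 3.51 and 3.75 FPKM in DMSO libraries (log2 difference −1.38, SE 0.19, adjusted p = 0.00578). Both other ugt2a7 IDs were also called lower, but ENSDARG00000110614 entered the test only through DMSO, and ENSDARG00000091624 lost its call in 6 of 12 alternatives (adjusted p up to 0.140). Reads may be shared between such close copies. Summed, UGT2 genes reached 5.11 and 6.68 FPKM in BPC libraries against 18.5 and 17.3 FPKM in DMSO libraries, a ratio of 0.329 that was the smallest of the 4 UGT classes.

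UGT5 is a family described in fish, with no human member. It was the most numerous class, with 14 genes of which 7 could be tested and 2 were lower (28.6%), against 17.5% of all tested genes. Values of ugt5b4 were 0.532 and 0.386 FPKM in BPC libraries, against 3.26 and 2.31 FPKM in DMSO libraries (log2 difference −1.37, SE 0.17, adjusted p = 0.00464). For ugt5d1 they were 0.272 and 0.450 FPKM in BPC libraries, against 2.13 and 2.07 FPKM in DMSO libraries (log2 difference −1.19, SE 0.14, adjusted p = 0.00413). Both BPC libraries lay well below both DMSO libraries for these 2 genes, of which ugt5d1 entered the test only through DMSO. In contrast, ugt5b2, chosen after its values were seen, had 3.82 and 3.72 FPKM in BPC libraries and 3.69 and 3.48 FPKM in DMSO libraries, with a log2 difference of 0.06 that did not pass. It was the 1 UGT gene whose BPC values both lay above its DMSO values. The genes ugt5a1, ugt5b5 and ugt1b6p were listed at 0 in both BPC libraries and at 0.0897 to 0.752 FPKM in DMSO libraries. As given above, more genes of the whole table were at 0 in BPC libraries than in DMSO libraries.

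The enzyme encoded by ugt8 does not conjugate xenobiotics: it adds galactose to ceramide to make the galactolipid of myelin. Its transcript was at 3.35 and 3.09 FPKM in BPC libraries, against 5.13 and 4.83 FPKM in DMSO libraries (log2 difference −0.50, SE 0.12, adjusted p = 0.0306). The groups did not overlap. In the same libraries 5 of 15 tested myelinating glia markers (33.3%) were lower and 3 (20%) higher, against 17.5% and 7.06% of all tested genes. The summed level of these markers was 72.2 and 71.1 FPKM in BPC libraries against 83.4 and 82.7 FPKM in DMSO libraries. The myelin gene mbpa had 0.280 and 1.12 FPKM in BPC libraries and 7.41 and 6.32 FPKM in DMSO libraries. In the other direction, the myelin gene plp1a, chosen after its values were seen, had 14.7 and 6.93 FPKM in BPC libraries and 2.49 and 2.77 FPKM in DMSO libraries, and olig2 and nkx2.2a also rose. The part of these cells in the ugt8 result was not tested. The ugt8 call was lost without DMSO 1 (adjusted p = 0.217), without DMSO 3 (0.149), under median centring (0.0863), under quantile normalization (0.0897) and with no filter (0.0615). Without DMSO 1 the UGT count was 4 lower and without DMSO 3 it was 5 lower, in both cases with 0 higher.

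**Figure D2:**
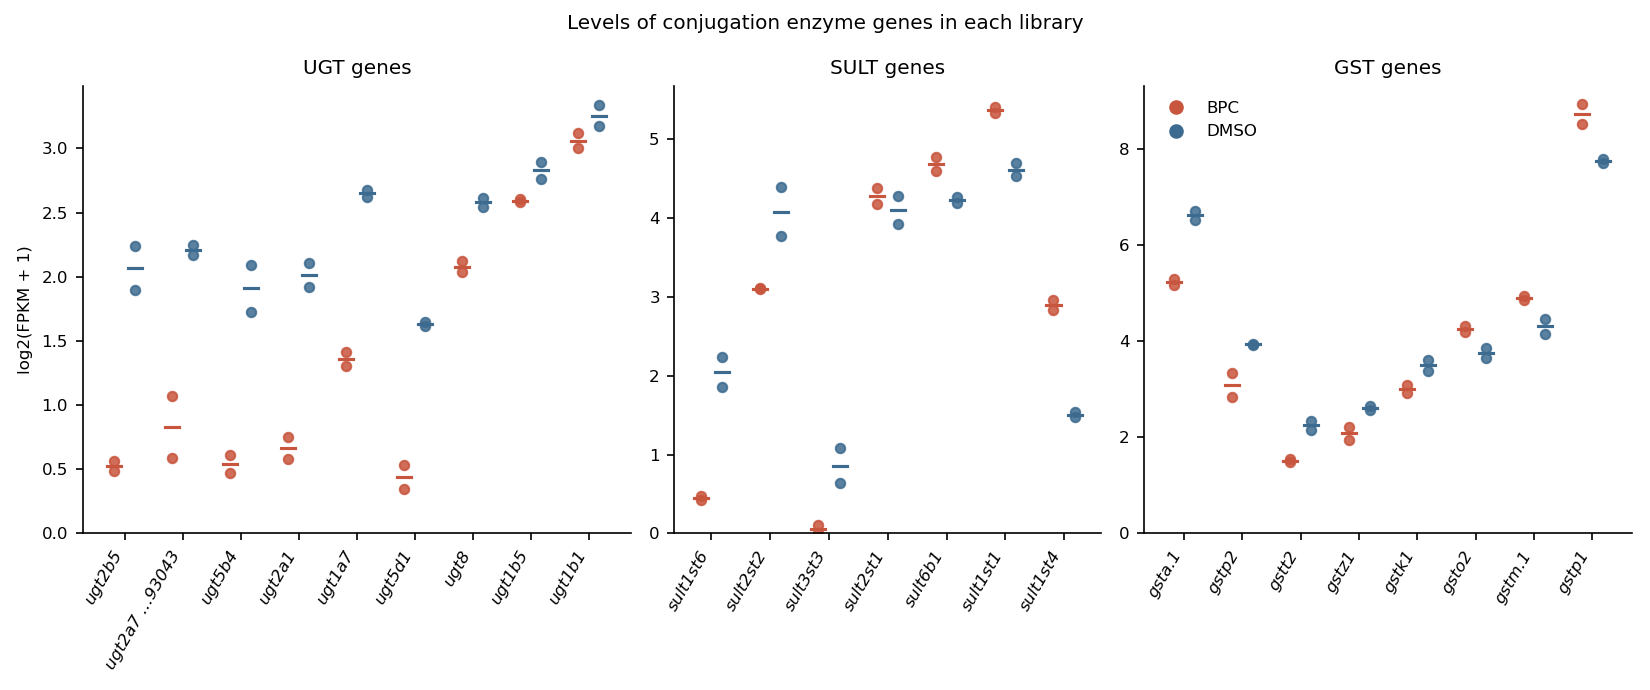
Each dot is 1 library's level in log2(FPKM + 1) and each bar the group mean, with BPC left of DMSO, for the 24 named UGT, SULT and GST genes. The groups are separate for all of them except sult2st1.

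SULT transcripts changed in both directions. Of 11 tested genes, 3 rose (sult1st1, sult1st4 and sult6b1) and 3 fell (sult1st6, sult2st2 and sult3st3). Each direction held 27.3%, against 7.06% higher and 17.5% lower among all tested genes. With libraries scaled to equal totals the split was 2 higher and 4 lower, and under median centring it was 4 higher and 2 lower. The summed level was 116 and 108 FPKM in BPC libraries, against 103 and 86.4 FPKM in DMSO libraries, which did not overlap as deposited but overlapped when the totals were made equal.

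SULT1 enzymes act on phenols, including estrogens, thyroid hormones and bisphenols. The most abundant of all SULT transcripts, sult1st1, stood at 41.4 and 39.3 FPKM in BPC libraries, against 25.1 and 22.1 FPKM in DMSO libraries (log2 difference 0.75, SE 0.11, adjusted p = 0.00729). It took 35.7 and 36.4% of the SULT sum in BPC libraries and 24.3 and 25.6% in DMSO libraries. The gene sult1st4 also rose, with 6.15 and 6.78 FPKM in BPC libraries against 1.78 and 1.903 FPKM in DMSO libraries. Its BPC mean was 3.52-fold the DMSO mean (log2 difference 1.39, SE 0.13, adjusted p = 0.00219), and the call held under all 12 alternatives. The opposite was measured for sult1st6, which had 0.344 and 0.386 FPKM in BPC libraries against 3.70 and 2.61 FPKM in DMSO libraries. Its mean was 8.65-fold lower (log2 difference −1.59, SE 0.17, adjusted p = 0.00305). As said above, sult1st6 entered the test only through its DMSO libraries. The SULT1 sum was 50.2 and 48.5 FPKM in BPC libraries and 32.2 and 28.1 FPKM in DMSO libraries.

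SULT2 enzymes sulfate hydroxysteroids such as dehydroepiandrosterone. The gene sult2st2 had 7.65 and 7.58 FPKM in BPC libraries, against 20.1 and 12.6 FPKM in DMSO libraries (log2 difference −0.98, SE 0.20, adjusted p = 0.0194). The DMSO libraries differed from each other here, but both stood above both BPC libraries. Its close relative sult2st1 had 19.8 and 17.1 FPKM in BPC libraries and 18.4 and 14.3 FPKM in DMSO libraries, which overlapped and did not pass (log2 difference 0.17, SE 0.15, adjusted p = 0.430). That difference turned to −0.07 when totals were made equal. Values of sult3st3 were 0 and 0.0804 FPKM in BPC libraries, against 1.12 and 0.558 FPKM in DMSO libraries (log2 difference −0.81, SE 0.18, adjusted p = 0.0236). The gene was near 0 in both BPC libraries and low in DMSO libraries.

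The remaining abundant SULT gene was sult6b1, at 26.4 and 23.3 FPKM in BPC libraries against 17.2 and 18.3 FPKM in DMSO libraries (log2 difference 0.46, SE 0.11, adjusted p = 0.0308). The groups did not overlap, and the means differed 1.40-fold. The gene sult4a1, known from mammalian brain and chosen after its values were seen, had overlapping groups, with 8.74 and 7.46 FPKM in BPC libraries and 7.52 and 7.77 FPKM in DMSO libraries. Calls were lost without DMSO 3 for sult1st1 (adjusted p = 0.0663) and sult6b1 (0.147), without DMSO 1 for sult2st2 (0.0809) and sult6b1 (0.228), and without BPC 1 for sult2st2 (0.0507), sult3st3 (0.074) and sult6b1 (0.0554). The call of sult6b1 was also lost at equal totals (0.172), that of sult3st3 under median centring (0.0501), quantile normalization (0.0858) and a pseudocount of 0.01 (0.0536), and those of all 3 genes with no filter (0.056 for sult6b1, 0.0634 for sult2st2, 0.0536 for sult3st3).

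**Figure D3:**
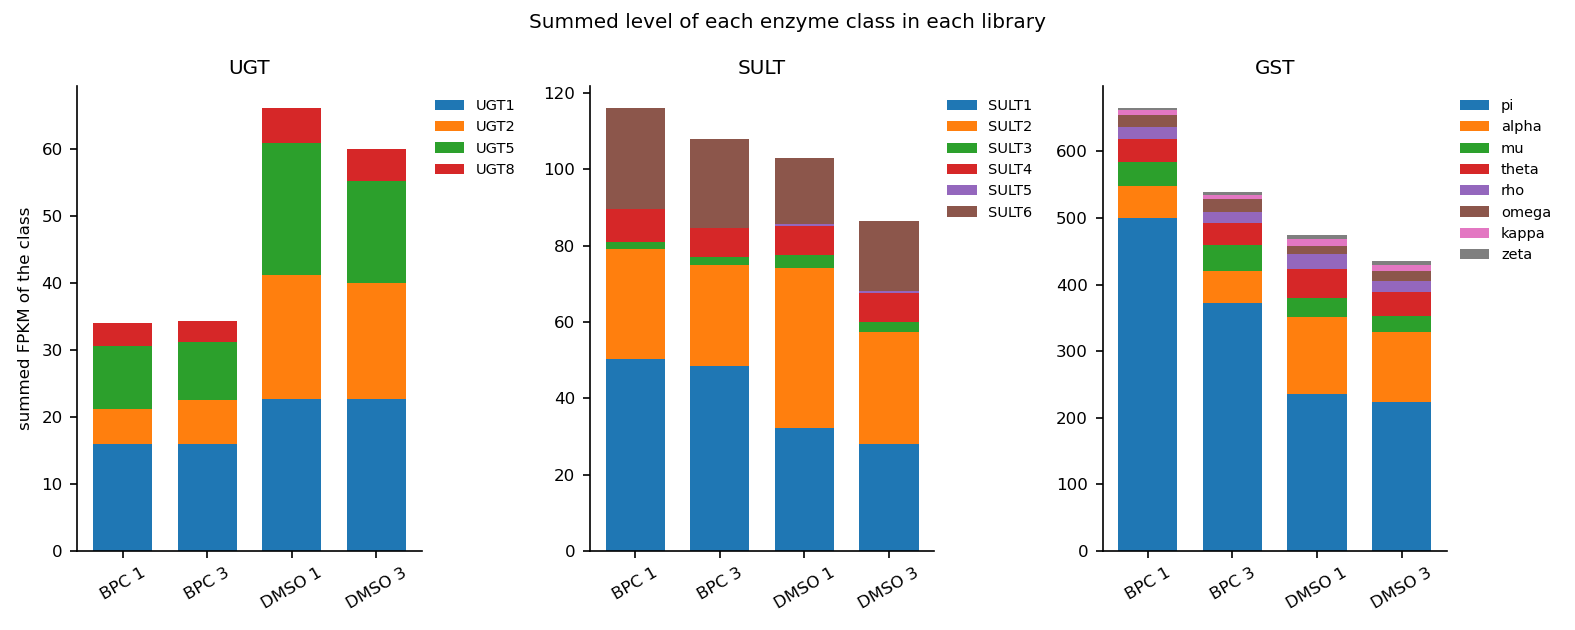
Stacked bars give the summed FPKM of each UGT, SULT and GST class in each of the 4 libraries, BPC left of DMSO, on axes that start at 0. The UGT bars are lower in BPC libraries, while the GST bars are taller with a wider pi segment. The taller SULT and GST bars overlap DMSO when libraries are scaled to equal totals.

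GST transcripts also changed in both directions, and a single gene set the direction of their sum. Of 15 tested genes, 3 rose (gstp1, gstm.1 and gsto2) and 5 fell (gsta.1, gstp2, gstt2, gstz1 and gstk1). These were 20% higher and 33.3% lower, against 7.06% and 17.5% of all tested genes. At equal totals the split was 1 higher and 6 lower, and under median centring 3 higher and 3 lower. The summed level was 665 and 539 FPKM in BPC libraries, against 474 and 435 FPKM in DMSO libraries. With gstp1 left out it was 174 and 173 FPKM in BPC libraries, against 252 and 226 FPKM in DMSO libraries. The sum without gstp1 stayed wholly below DMSO at equal totals and after median scaling, while the full sum overlapped DMSO at equal totals.

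The pi class gene gstp1, a known target of the oxidative stress regulator Nrf2 in zebrafish, was the most abundant conjugation transcript. Its level was 491 and 366 FPKM in BPC libraries, against 222 and 208.5 FPKM in DMSO libraries (log2 difference 0.98, SE 0.16, adjusted p = 0.0108). It made up 73.9 and 68.0% of the GST sum in BPC libraries and 46.8 and 48.0% in DMSO libraries. The paralog gstp2 had 9.14 and 6.19 FPKM in BPC libraries, against 14.2 and 14.5 FPKM in DMSO libraries (log2 difference −0.85, SE 0.17, adjusted p = 0.0185). The ratio of gstp1 to gstp2 was 53.7 and 59.2 in BPC libraries against 15.7 and 14.4 in DMSO libraries. The pair therefore moved apart, with the caution that paralogs may share reads.

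Alpha class enzymes are abundant in liver and intestine, where they also reduce lipid peroxides. The gene gsta.1 was at 38.3 and 35.3 FPKM in BPC libraries, against 103.9 and 91.7 FPKM in DMSO libraries. It had the smallest adjusted p of all conjugation genes (log2 difference −1.38, SE 0.11, adjusted p = 0.00187) and was called under all 12 alternatives. Its tandem copy gsta.2, chosen after its values were seen, had overlapping groups, with 9.62 and 12.4 FPKM in BPC libraries and 11.6 and 13.6 FPKM in DMSO libraries. The ratio of gsta.1 to gsta.2 was 3.99 and 2.85 in BPC libraries, against 8.96 and 6.75 in DMSO libraries. In DMSO libraries gsta.1 supplied 21.9 and 21.1% of the GST sum, against 5.77 and 6.56% in BPC libraries.

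In the mu and omega classes 1 gene each rose. The first of 3 tandem mu genes, gstm.1, had 28.1 and 29.6 FPKM in BPC libraries, against 21.0 and 16.9 FPKM in DMSO libraries (log2 difference 0.59, SE 0.13, adjusted p = 0.0230). The omega gene gsto2, whose mammalian counterpart reduces dehydroascorbate, had 17.3 and 18.98 FPKM in BPC libraries, against 11.5 and 13.5 FPKM in DMSO libraries (log2 difference 0.51, SE 0.12, adjusted p = 0.0295). The groups did not overlap for either gene, with BPC means 1.52-fold and 1.45-fold the DMSO means.

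The lower genes of smaller classes were gstt2, gstz1 and gstk1. Theta class gstt2 had 1.80 and 1.92 FPKM in BPC libraries, against 3.45 and 4.09 FPKM in DMSO libraries (log2 difference −0.73, SE 0.14, adjusted p = 0.0140). For gstz1, the maleylacetoacetate isomerase of tyrosine breakdown, the values were 2.88 and 3.64 FPKM in BPC libraries and 5.32 and 4.91 FPKM in DMSO libraries (log2 difference −0.53, SE 0.14, adjusted p = 0.0402). The kappa gene gstk1, of mitochondria and peroxisomes in mammals, had 7.58 and 6.61 FPKM in BPC libraries and 11.2 and 9.46 FPKM in DMSO libraries (log2 difference −0.49, SE 0.13, adjusted p = 0.0429). The groups were separate for all 3 genes, and gstz1 and gstk1 stood close to the threshold. Of 8 called GST genes, only gsta.1 kept its call without DMSO 1 or without DMSO 3, where the adjusted p of gstp1 was 0.0646 and 0.0706, that of gstp2 0.074 and 0.0706, that of gstm.1 0.0565 and 0.182, that of gsto2 0.237 and 0.0841, and that of gstt2 0.061 and 0.108. With no filter the calls of gstp2 (0.0582), gstm.1 (0.0558) and gsto2 (0.0599) were lost. The calls of gstm.1 (0.0755) and gsto2 (0.121) were also lost at equal totals, that of gstp1 (0.0632) under quantile normalization, and gstz1 and gstk1 lost theirs in 7 of 12 alternatives each.

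Many conjugation genes lie side by side. In the RefSeq gene order of assembly GRCz12tu, to which 57 of the 67 genes were matched, 29 genes stood in 9 runs of direct neighbours. In the run of 6 ugt1b genes, ugt1b2, chosen after its values were seen, was alone in being called, at 0.0805 and 0.0284 FPKM in BPC libraries against 1.37 and 0.958 FPKM in DMSO libraries. In the run of ugt5b4, ugt5b3, ugt5b2 and ugt5b1, ugt5b4 alone was called. Of 4 neighbouring SULT1 genes sult1st1 alone could be tested and rose, and of the pair sult2st1 and sult2st2 the second fell. Of the gstm genes the first rose, while gstm.2 and gstm.3 did not pass (adjusted p = 0.475 and 0.151), although the gstm.3 difference (0.44) was near that of gstm.1 (0.59). In the untested pair ugt5a1 and ugt5a2 both genes lay wholly below DMSO and both were flagged down in the authors' deposited table. Neighbouring copies, the ugt1b genes among them, may share reads, so their levels may not be separate measurements. Whether neighbours differed from each other was not tested.

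**Figure D4:**
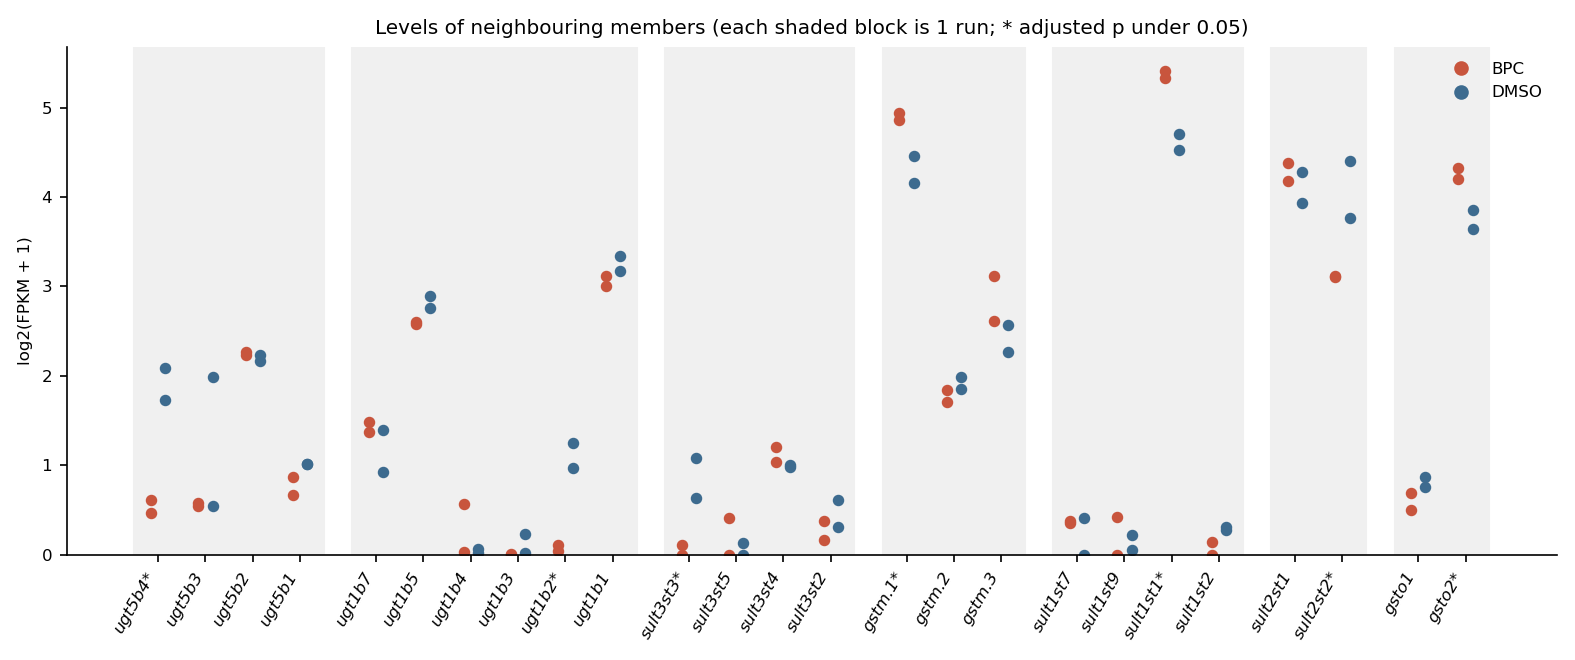
Dots give log2(FPKM + 1) in each library, BPC left of DMSO, for conjugation genes that neighbour each other in the RefSeq order; a star marks an adjusted p under 0.05. In each of the 7 runs drawn, 1 gene was called; the 2 runs with no tested gene (ugt5a and ugt5c) are left out.

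Genes that supply the donors were measured from lists. Of 9 tested genes of UDP-glucuronic acid supply, 0 rose and 0 fell by limma, with 1 higher and 1 lower at an unadjusted p under 0.05 and 0 flagged in the authors' deposited table. At equal totals 3 fell, and under median centring 1 rose. The highest in level was pgm1, at 107.6 and 70.9 FPKM in BPC libraries and 67.0 and 62.6 FPKM in DMSO libraries, and next ugp2a, at 19.4 and 11.9 FPKM in BPC libraries and 21.7 and 21.9 FPKM in DMSO libraries. Of 11 genes of PAPS and sulfate supply, 5 fell and 0 rose, also with 0 higher at an unadjusted p under 0.05 and 0 flagged up by the authors. The 5 were 45.5% of the list, against 17.5% lower and 7.06% higher among all tested genes. They included 2 of the 3 PAPS synthase genes. Levels of papss2a were 4.63 and 4.76 FPKM in BPC libraries, against 10.1 and 7.76 FPKM in DMSO libraries (log2 difference −0.79, SE 0.15, adjusted p = 0.0137). Those of papss1 were 6.91 and 8.12 FPKM in BPC libraries, against 11.5 and 12.4 FPKM in DMSO libraries (log2 difference −0.61, SE 0.12, adjusted p = 0.0178). The third, papss2b, chosen after its values were seen, was the most abundant and did not pass, at 20.7 and 20.7 FPKM in BPC libraries and 17.9 and 20.7 FPKM in DMSO libraries. Without DMSO 1 the adjusted p of papss2a and papss1 was 0.106 and 0.0943, without DMSO 3 that of papss1 was 0.125, and the count of lower genes was 0 and 1. Under median centring 2 genes of this list fell. The others were the sulfate transporter slc26a1, the phosphatase bpnt1 and slc13a3, a dicarboxylate carrier in mammals.

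Of 17 genes of glutathione synthesis and turnover, 1 rose and 6 fell, against 9 lower at equal totals, 2 lower under median centring and 0 lower of 15 without DMSO 1 or without DMSO 3. These were 5.88% higher and 35.3% lower, against 7.06% and 17.5% of all tested genes. Of the 6 that fell, 2 entered the test only through DMSO. The 6 were cthl, cth, cbsa, ggctb, ggt1b and chac2. The genes that make glutathione itself, gclc, gclm and gss, chosen after their values were seen, did not pass (limma adjusted p = 0.362, 0.633 and 0.805). The riser was cbsb, a cystathionine beta-synthase of the route to cysteine, at 15.0 and 10.1 FPKM in BPC libraries against 4.29 and 5.08 FPKM in DMSO libraries (log2 difference 1.23, SE 0.19, adjusted p = 0.0082). Its paralog cbsa had 1.08 and 1.12 FPKM in BPC libraries, against 2.74 and 2.59 FPKM in DMSO libraries (log2 difference −0.80, SE 0.13, adjusted p = 0.0091), a call lost without DMSO 1 (0.077) or DMSO 3 (0.0548). Among 13 microsomal GST and other conjugating genes 6 rose and 3 fell, or 46.2% and 23.1%, against 7.06% and 17.5% of all tested genes. The membrane-bound transferase mgst3b had 84.5 and 74.4 FPKM in BPC libraries against 41.3 and 45.6 FPKM in DMSO libraries (log2 difference 0.85, SE 0.12, adjusted p = 0.00607, and 0.0595 without DMSO 1). For mgst1.2 the values were 12.9 and 10.9 FPKM in BPC libraries against 4.84 and 5.18 FPKM in DMSO libraries (log2 difference 1.097, SE 0.13, adjusted p = 0.00415). The groups were separate for each of these genes, and the list had 3 risers without DMSO 1 and 4 without DMSO 3. The other risers were mgst1.1, mgst2 and the thiopurine methyltransferases tpmt.1 and tpmt.2, and the genes that fell were mgst3a and the methyltransferases comta and hnmt.

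Transport and hydrolysis followed other counts. Of 16 export and uptake genes 7 fell and 2 rose, or 43.8% and 12.5%, against 17.5% and 7.06% of all tested genes. Of the 7 that fell, 2 entered the test only through DMSO. The organic anion carrier slco1d1 was at 3.72 and 4.66 FPKM in BPC libraries, against 11.1 and 9.71 FPKM in DMSO libraries (log2 difference −1.14, SE 0.14, adjusted p = 0.0047). The half-transporter gene abcg2d was at 2.17 and 1.67 FPKM in BPC libraries, against 0.380 and 0.418 FPKM in DMSO libraries (log2 difference 1.06, SE 0.15, adjusted p = 0.00617). Both genes had separate groups, but abcg2d entered the test only through its BPC libraries. The other riser, abcb5, had 20.4 and 17.1 FPKM in BPC libraries, against 9.91 and 10.8 FPKM in DMSO libraries (log2 difference 0.79, SE 0.13, adjusted p = 0.00897). The count of higher transport genes was 1 of 15 without BPC 1 or without BPC 3. That of lower ones was 1 of 14 without DMSO 1 or without DMSO 3, and 11 of 16 at equal totals. The list of conjugate hydrolysis held gusb, sts and further sulfatases, some of which act on other substrates. Of its 15 genes 1 fell and 0 rose by limma, with 4 lower and 1 higher at an unadjusted p under 0.05 and 0 flagged by the authors. Both gusb and sts, chosen after their values were seen, lay wholly below DMSO but did not pass (limma adjusted p = 0.071 and 0.0798). The 1 that fell, sulf2b, encodes a sulfatase of heparan sulfate, and its call (adjusted p = 0.0391) was lost without DMSO 1 (0.187), without DMSO 3 (0.246), without BPC 1 (0.0675) and under median centring (0.125). At equal totals 5 hydrolysis genes fell.

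Among 31 regulators of conjugation genes 2 rose and 7 fell, or 6.45% and 22.6%, against 7.06% and 17.5% of all tested genes. At equal totals 1 rose and 15 fell, and under median centring 4 rose and 3 fell. An Nrf2 gene, nfe2l2a, was at 33.8 and 29.6 FPKM in BPC libraries, against 17.6 and 16.9 FPKM in DMSO libraries (log2 difference 0.84, SE 0.11, adjusted p = 0.0058), and was called under all 12 alternatives. The other Nrf2 gene, nfe2l2b, chosen after its values were seen, did not pass. It had 1.058 and 0.856 FPKM in BPC libraries and 1.34 and 1.06 FPKM in DMSO libraries (log2 difference −0.17, SE 0.14, adjusted p = 0.425). The bile acid receptor nr1h4 had 0.246 and 0.475 FPKM in BPC libraries, against 2.16 and 2.03 FPKM in DMSO libraries (log2 difference −1.19, SE 0.15, adjusted p = 0.00458), and entered the test only through DMSO. The aryl hydrocarbon receptor gene ahr1b had 2.63 and 3.27 FPKM in BPC libraries, against 5.91 and 6.12 FPKM in DMSO libraries (log2 difference −0.83, SE 0.14, adjusted p = 0.0096). The liver and gut factor hnf4a had 1.56 and 1.57 FPKM in BPC libraries, against 3.40 and 2.99 FPKM in DMSO libraries (log2 difference −0.71, SE 0.13, adjusted p = 0.0141). For these last genes the call was lost without DMSO 1 (0.0593 for ahr1b, 0.121 for hnf4a) or DMSO 3 (0.0591 for ahr1b, 0.0642 for hnf4a). Without either DMSO library the count of lower regulators was 0, and nr1h4 did not pass the filter on low values there. The second riser was pparaa.

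**Figure D5:**
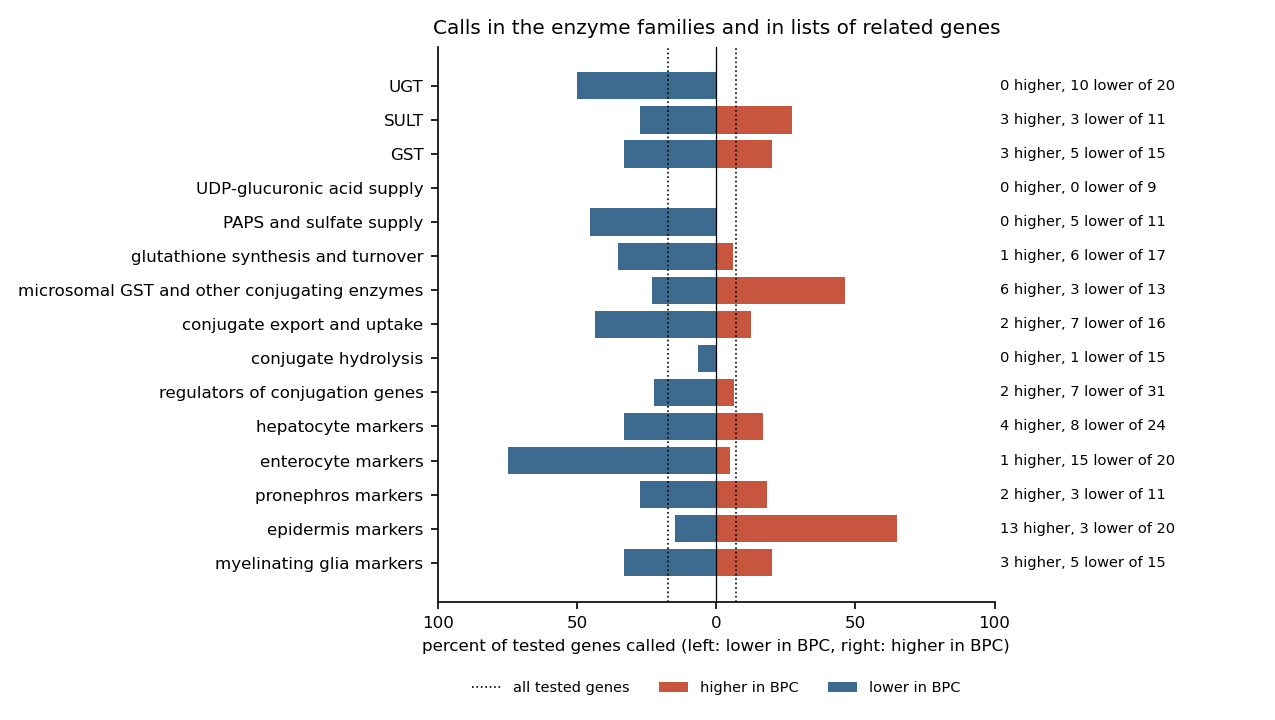
Bars give the percent of tested genes called higher (right) and lower (left) in BPC for the UGT, SULT and GST families and for lists of related genes and cell type markers, with dotted lines at 7.06% higher and 17.5% lower for all tested genes. UGT (10 lower of 20) and enterocyte markers (15 lower of 20) extend far left, where 4 of the 10 and 9 of the 15 entered the test only through DMSO, and epidermis markers (13 higher of 20) far right.

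Lists of enterocyte, hepatocyte, pronephros and epidermis markers were counted in the same way, where 17.5% of all tested genes were lower and 7.06% higher. Which of these tissues express the conjugation genes was not measured. Of 20 tested enterocyte markers 15 fell and 1 rose, but 10 of the 20 entered the test only through DMSO, and 9 of the 15 were among these. The list had a summed level of 541 and 505 FPKM in BPC libraries against 749 and 671 FPKM in DMSO libraries. The brush border gene vil1, with the largest fall of the list, had 0.201 and 0.593 FPKM in BPC libraries, against 7.98 and 6.68 FPKM in DMSO libraries (log2 difference −2.59, SE 0.18, adjusted p = 0.00118). The riser apoa4a had 17.6 and 15.3 FPKM in BPC libraries, against 6.09 and 3.53 FPKM in DMSO libraries (adjusted p = 0.00565). The most abundant enterocyte marker, apoa4b.1, overlapped, at 317 and 282.5 FPKM in BPC libraries and 328.6 and 256.3 FPKM in DMSO libraries. Both were chosen after their values were seen. Of 24 hepatocyte markers 8 fell and 4 rose, and 2 of the 8 entered the test only through DMSO. The hepatocyte list had a summed level of 3162 and 3535 FPKM in BPC libraries against 4426 and 3910 FPKM in DMSO libraries. Most of that sum came from apoa2 and apoa1b, chosen after their values were seen, and neither passed (adjusted p = 0.203 and 0.289). The apoa2 values were 1344 and 1477 FPKM in BPC libraries and 1820 and 1655 FPKM in DMSO libraries, while the groups overlapped for apoa1b. Among its genes, fabp10a had 1.64 and 2.96 FPKM in BPC libraries, against 55.3 and 36.2 FPKM in DMSO libraries (log2 difference −3.82, SE 0.26, adjusted p = 0.00102). In the other direction, apobb.1, plg, itih2 and tat rose, among which apobb.1, a gene of apolipoprotein B chosen after its values were seen, had 305 and 293 FPKM in BPC libraries and 217 and 174 FPKM in DMSO libraries (adjusted p = 0.0249). Listed at 0 in both BPC libraries were ttr, at 1.25 and 1.08 FPKM in DMSO libraries, and the untested ahsg2, at 0 and 0.0826 FPKM in DMSO libraries. Of 11 pronephros markers 3 fell and 2 rose, with sums of 70.1 and 61.3 FPKM in BPC libraries and 77.5 and 73.8 FPKM in DMSO libraries. Of 20 epidermis markers 13 rose and 3 fell, with sums of 18924 and 15792 FPKM in BPC libraries and 8425 and 8631 FPKM in DMSO libraries. Most of the epidermis sum came from krt4 and cyt1, which both rose. Without DMSO 1 and without DMSO 3 the lower enterocyte markers were 3 and 4 of the 10 that could then be tested, the lower hepatocyte markers 4 and 4 of 22 with 0 higher, and the higher epidermis markers 4 and 5. The enterocyte sum was wholly lower and the epidermis sum wholly higher in BPC libraries under each scaling, while the hepatocyte and pronephros sums overlapped after median scaling. As deposited, the enterocyte, hepatocyte and pronephros sums, the UGT sum and gsta.1 were all wholly lower in BPC libraries. So were gstp2, sult1st6, sult2st2 and the other conjugation genes called lower. The epidermis sum, gstp1, sult1st1, sult1st4 and the other conjugation genes called higher were wholly higher, as were the SULT and GST sums. Over all listed genes 39.5% lay wholly below and 19% wholly above. The part of cell type in these results was not tested.

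In the authors' deposited table, a gene counts as significant at a q-value under 0.05 and a change of at least 2-fold, which held for every one of the 27472 genes. By that flag 18 conjugation genes were down and 1 was up, where 6.44% of all genes were down and 1.94% up. The 18 were 12 UGT, 4 SULT and 2 GST genes, and the 1 up was sult1st4. The flag and limma shared 14 lower genes and 1 higher gene, and 9 genes were called by limma without the flag. A further 4 were flagged but not tested by limma, as they did not pass the filter: ugt5a1, ugt5a2, ugt5b5 and sult5a1. One of the 9 was gstp1, with a log2 change of 0.99 in the authors' deposited table.

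The authors' deposited KEGG enrichment compared a single pair, BPC 3 against DMSO 3, and has no replicate check. Its input was 424 changed genes of 5689, among them 6 conjugation genes, all down: ugt1a7, ugt2a1, ugt5g1, gsta.1, gstt2 and gstp2. In the authors' deposited table the pathway "Drug metabolism - other enzymes" held 12 changed genes of 61 (p = 0.00152) and "Drug metabolism - cytochrome P450" held 8 of 32 (p = 0.0019), each with all 6. Sharing the same 6 genes, they are not separate results. They stood at rank 10 and 12 by p among 135 pathways, and no adjusted p is given. Over all 4 libraries ugt5g1 was neither called by limma nor flagged by the authors. "Glutathione metabolism" held 6 of 57 (p = 0.249 in the authors' deposited table), 3 of them the GST genes.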

How the data were processed

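The authors deposited FPKM per gene and library, and a comparison table with a fold ratio, its log2, a p-value and a q-value, per the file headers. Their KEGG table holds numbers of genes and a p-value per pathway for 1 pair of libraries. Tools listed by the submitters' processing notes, without roles, are HISAT2 2.0.4, cutadapt 1.9, edgeR, DESeq2 and StringTie 1.3.4d. Genome build and use of strand: not given in the sources used here. No coordinates or sequences are printed.

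The fit was limma 3.58.1 (R 4.3.3) with an intensity trend and no covariate besides group, applied to log2(FPKM + 1). Genes reaching 0.5 FPKM in 2 libraries or more entered it, p-values were two-sided, and the Benjamini-Hochberg adjustment covered 19873 genes. The fit was tested on data simulated with independent normal noise, with changes added only to genes with a mean log2(FPKM + 1) above 1. That simulation does not cover changes of lower genes or the effect of the filter. The log scale with its pseudocount understates changes of low genes. Neither read totals nor a common step among low FPKM was found, so the depth is unknown and counting intervals are missing. An FPKM of 0 can be a failed estimate.

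Members and lists were chosen with earlier results of these data known. Of 240 list symbols 227 were matched. Copies that share a symbol are given by ID or tandem number. Named members were, per family, up to 6 called genes with the largest change in each direction and the 3 most abundant, with ugt8 and gstp1, genes at 0 in 1 group and at 1 FPKM or more in each library of the other (none met this), and per list up to 4 called genes with the smallest p, or the 2 most abundant where none was called. Alternatives were pseudocounts of 0.1 and 0.01, no filter, a filter of 1 FPKM, TPM scaling, median centring, quantile normalization, a replicate block and leaving out each library. Median scaling of the class sums was added after the data were seen. A marker gene of 1 list is not reported here by name.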

Additional observations from a re-analysis of the deposited data

How the results depend on the processing

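Of 24 called conjugation genes none reversed, and 18 were tested under all 12 alternatives. Of those 18, 6 kept their call throughout: ugt1a7, ugt2a1, ugt2a7 (ENSDARG00000093043), ugt5b4, sult1st4 and gsta.1. The genes passing over the whole table were 4884, against 2768 with no filter, 8045 after TPM scaling and 1004 to 6243 with 1 library left out. Higher conjugation genes were 6, against 3 with no filter, 3 after TPM scaling and 1 to 6 with 1 library left out. Lower ones were 18, and 5 to 17 with 1 library left out. Both low ends came without a DMSO library, where 40 of the 46 genes were tested. The log2 ratio of the UGT sum was −0.88, against −1.14 after TPM scaling and −0.70 after median scaling. For GST it was 0.40, against 0.14 after TPM scaling. For SULT it was 0.25 and turned to −0.0072 after TPM scaling. SULT4 turned from 0.079 to −0.17 after TPM scaling and GST rho from −0.16 to 0.032 after median scaling. The sult2st1 difference of 0.17 turned to −0.070 after TPM scaling and ranged between −0.00090 and 0.35 with 1 library left out. The cause of these turns was not tested. With the replicate number as a block, 1333 genes were higher and 3282 lower, with 6 and 17 conjugation genes, and gstz1 lost its call (adjusted p = 0.0514). Deviations of same-numbered libraries from their group means had a correlation of 0.00805 over the tested genes. With 2 libraries a group both pairs give this same value, which does not settle whether a number marks a shared clutch or day. With 2 libraries a group and unknown depth, a gene that did not pass is not shown to be unchanged.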
